A study of Rattus norvegicus with 30 samples.

Results

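The collagen genes of rat embryonic fibroblasts were followed through 16 days without serum. They were the rows whose symbol is Col, a number, the letter a and a number, 27 of the 17353 genes in the table. The cells were the REF cell line, labelled as not transformed, and RNA was sequenced from unstarved cells (control) and after 2, 3, 4, 6, 8, 10, 12, 14 or 16 days of serum starvation, with 3 libraries in each of the 10 groups. The series calls these biological replicates without saying what a replicate is, so p-values measure the spread between these libraries. All groups are 1 line, so nothing here speaks of other fibroblasts.

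Collagens are secreted proteins in which chains with a repeated glycine motif wind into a triple helix. Fibrillar collagens (types I, III, V, XI and XXVII among them) build the fibres of connective tissue, with type V seeding and limiting the width of type I fibrils. Type IV forms the sheet of basement membranes, type VIII short-chain networks around vessels and in the eye, and type XVIII carries endostatin at its end and sits in basement membranes. Fibroblasts are the main makers of types I and III, and procollagen needs a set of hydroxylases, chaperones, proteases and cross-linking oxidases before it becomes fibre.

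Values are FPKM, read fragments counted relative to transcript length and library size, so levels can be set against each other between genes. The FPKM sums ran from 582501 to 785072 and the read totals are not given in the table. The size of the lowest steps above 0 gave each library's depth relative to the deepest. The 10 libraries numbered replicate 1 lay between 0.752 and 1 and the other 20 between 0.245 and 0.508. Of the fibroblast markers, Vim (mean of 4621 FPKM), S100a4 (4543) and Pdgfrb (282) were high, while Pdgfra (0.647), Thy1 (0.0233), Fap (0.00136), Dcn (0.606) and Lum (1.75) were near 0. The 8 fibroblast markers together summed to 10956 to 12866 FPKM in control, 12732 to 15602 at day 2, 6301 to 7631 at day 8 and 6621 to 8256 at day 16. Skeletal muscle markers (Myod1, Myog, Des and Ckm) summed to 312 to 335 FPKM in control, 12.0 to 14.8 at day 2, 17.4 to 17.7 at day 8 and 25.6 to 31.1 at day 16, nearly all from Myod1 and Des, with Myog and Ckm near 0. Both sums moved with the days without serum, and their part in the collagen changes was not tested. The defining markers of endothelium (Cdh5, Kdr) were at 0, as were Sox10 and Adgre1. Of the markers of cartilage and bone, Acan, Matn1, Sp7 and Ibsp were at or near 0, while Sox9 (mean of 22.6) and Runx2 (6.34) were not. The cartilage list, nearly all Sox9, summed to 8.23 to 13.6 FPKM in control and 29.5 to 36.6 at day 8, and its part in the results was not tested. Of the epithelial markers Krt8 alone was above 1 FPKM, with sums of that list of 10.7 to 12.9 in control and 62.2 to 75.8 at day 16. In bulk RNA, fewer cells that make a collagen and less of its RNA per cell cannot be told apart.

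Of the 27 genes, 10 passed the filter of a mean of at least 1 FPKM over the 30 libraries that all tests used. They were Col1a1, Col3a1, Col5a1, Col5a2, Col5a3 and Col27a1 (fibrillar), Col16a1 (fibril-associated), Col4a1 and Col8a1 (network-forming) and Col18a1. Their means ran from 2246 FPKM for Col1a1 and 2092 for Col3a1 down to 2.78 for Col16a1 and 1.26 for Col27a1. The first gene outside was Col11a2, a chain of the cartilage fibril collagen XI, at 0.998. The next were Col9a2 (0.249) and Col14a1 (0.142). Col11a1, Col7a1, Col17a1, Col6a2, Col15a1, Col23a1, Col2a1, Col13a1 and Col9a1 had means between 0.000806 and 0.0391.

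Col1a2, Col26a1, Col4a3, Col4a4 and Col6a4 were listed at 0 in all 30 libraries. Col1a2 encodes the partner chain of Col1a1 in type I collagen, so its 0 stands beside the highest collagen of the table. The table also lists at 0 Rps6, a ribosomal protein, and Hprt1, a purine salvage enzyme, which every cell uses, so a 0 in it can be a failed estimate and no level of Col1a2 is drawn from it. Col6a2, a chain of the beaded filament collagen VI, was above 0 in 6 libraries and reached 0.0804 FPKM at most.

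After 2 days without serum, every tested collagen gene was higher than in control. All 10 rose (30% of all genes tested, 2680 of 8940, rose and 30.7% fell), with a median log2 change of 1.58 against 0.00 over all genes. All folds below come from log2(FPKM + 1), which understates the change of genes near 0. Rises ran from 1.32-fold for Col18a1 to 5.59-fold for Col16a1, and in none of the 10 did a day 2 library overlap a control library. The share of all genes without such overlap was not counted, here or in later comparisons, so statements on overlap describe these libraries only. No tested collagen fell. Col27a1 averaged 0.882 FPKM in control and 5.32 at day 2, against 1.26 over all libraries. It therefore passed the filter through the libraries where it was high, and its calls involving day 2 are no independent support. Col16a1 averaged 0.631 FPKM in control and passed the filter through the starved groups, so its calls against control are no independent support either.

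The genes of the major fibre collagens had the highest levels. Col1a1 stood at 2147, 2565 and 2261 FPKM in the control libraries and at 5914, 6503 and 6332 at day 2. Col3a1, whose type III homotrimers share fibrils with type I, stood at 1749, 1821 and 1740.1 in control and at 5674, 6338 and 6731 at day 2. The lowest day 2 library of each gene was more than 2-fold above its highest control library. Col1a1 rose 2.69-fold (1.43 ± 0.13 log2, SE, adjusted p = 4.40e-10) and Col3a1 3.52-fold (1.82 ± 0.07, adjusted p = 1.08e-16).

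**Figure D1:**
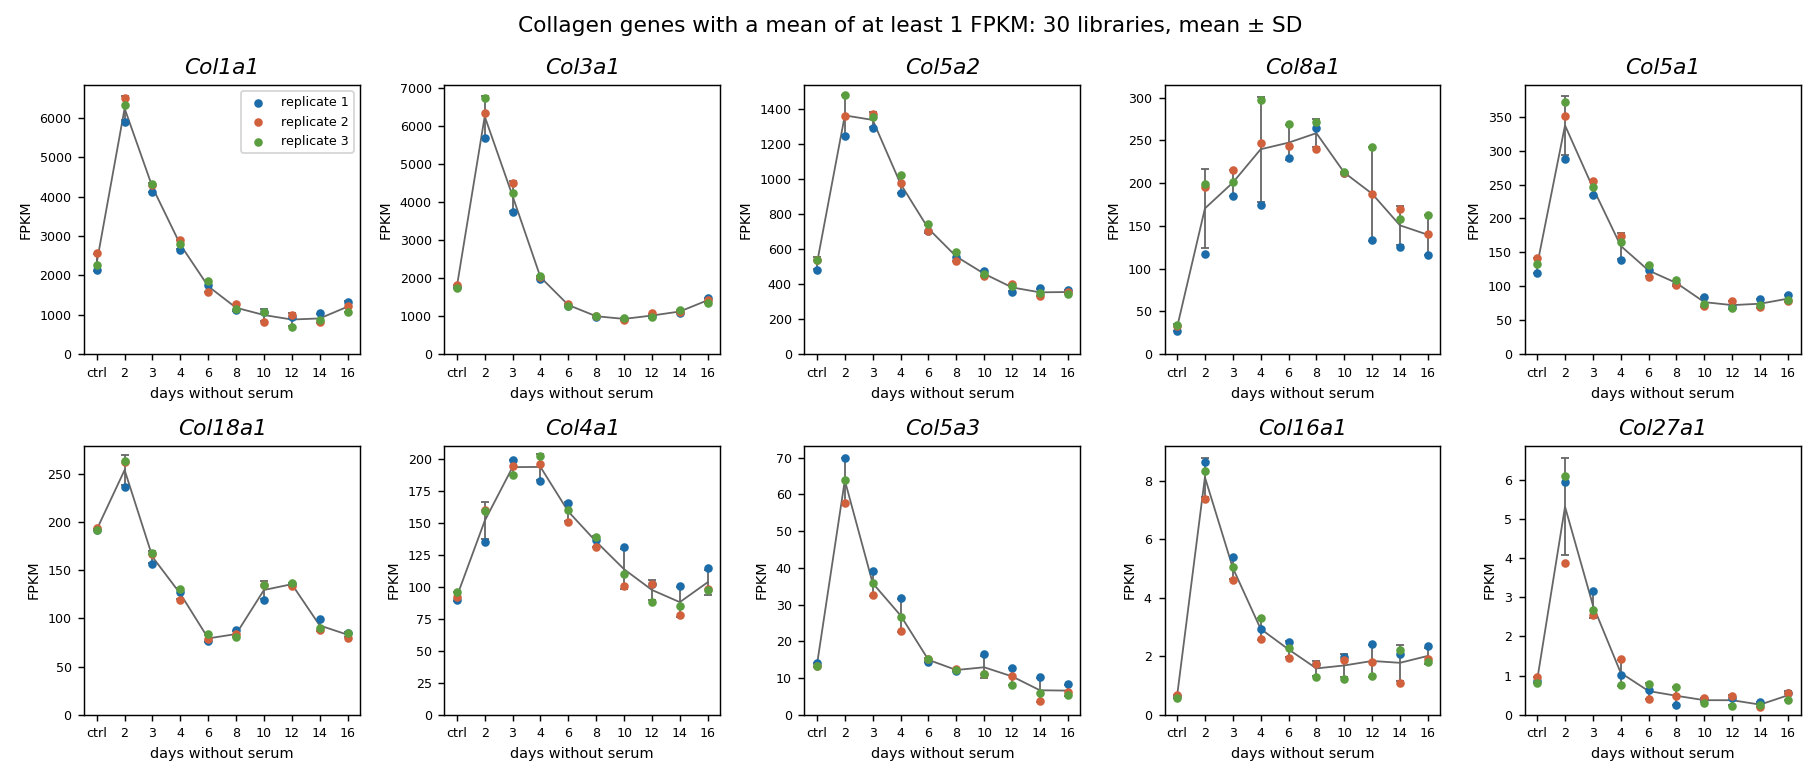
FPKM of the 10 tested collagen genes (vertical axes, linear, each from 0) in control (ctrl) and after 2 to 16 days without serum. Each point is 1 library, its colour the replicate number, and the grey line follows the means of 3 libraries with their SD. Col1a1 and Col3a1 peak at day 2 (means of 6249.7 and 6248 FPKM), Col4a1 at day 4 (194) and Col8a1 at day 8 (259).

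The type V chains rose with them. Col5a2 stood at 479, 539 and 536 FPKM in control and 1248, 1362 and 1480.3 at day 2, and Col5a1 at 119, 142 and 132 and 288, 352 and 373. Col5a3, a rarer chain of some type V molecules, stood at 14.1, 13.3 and 13.2 in control and 70, 57.8 and 63.8 at day 2. No library of one group reached the other in any of these chains. The rises were 2.63-fold, 2.55-fold and 4.44-fold (adjusted p = 5.84e-15, 8.58e-12 and 1.32e-09).

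The stretches before the starts of the type V genes are shown because these chains rose together at day 2. That of Col8a1 is set beside them because its later course differed. Each is the 250 bases before the annotated start, 5′ to 3′ on the gene's strand, from RefSeq on the GRCr8 build. The windows lie at chr3:31606630-31606879 (+) for Col5a1, chr9:55090152-55090401 (-) for Col5a2, chr8:27625949-27626198 (-) for Col5a3 and chr11:56246532-56246781 (+) for Col8a1. Capitals mark GGGCGG or its other strand CCGCCC (the GC box) and CCAAT or its other strand ATTGG (the CCAAT box).
Col5a1: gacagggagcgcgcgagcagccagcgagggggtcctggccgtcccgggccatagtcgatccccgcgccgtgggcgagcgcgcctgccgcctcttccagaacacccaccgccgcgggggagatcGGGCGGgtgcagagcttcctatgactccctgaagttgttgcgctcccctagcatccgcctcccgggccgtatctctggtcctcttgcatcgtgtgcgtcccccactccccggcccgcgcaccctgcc
Col5a2: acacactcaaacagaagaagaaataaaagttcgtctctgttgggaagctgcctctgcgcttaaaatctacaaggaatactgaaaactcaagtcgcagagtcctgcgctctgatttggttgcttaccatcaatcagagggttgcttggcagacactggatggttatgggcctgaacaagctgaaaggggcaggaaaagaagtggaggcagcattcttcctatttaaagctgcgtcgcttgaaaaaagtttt
Col5a3: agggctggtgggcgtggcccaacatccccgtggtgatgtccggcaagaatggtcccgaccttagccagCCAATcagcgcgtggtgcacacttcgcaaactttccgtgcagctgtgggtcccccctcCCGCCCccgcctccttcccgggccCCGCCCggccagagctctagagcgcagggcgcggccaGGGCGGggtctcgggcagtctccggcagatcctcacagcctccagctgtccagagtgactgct
Col8a1: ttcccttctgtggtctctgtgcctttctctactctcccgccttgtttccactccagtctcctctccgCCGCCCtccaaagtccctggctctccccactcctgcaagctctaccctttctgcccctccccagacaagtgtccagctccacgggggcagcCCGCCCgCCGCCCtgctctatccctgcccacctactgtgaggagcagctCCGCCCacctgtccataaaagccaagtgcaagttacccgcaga

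The windows were unlike each other. Col5a1 held 1 GC box and no CCAAT, Col5a3 held 3 and 1, Col8a1 held 4 GC boxes, and Col5a2 held neither. GC content was 71.6% for Col5a1, 68.8% for Col5a3, 62.0% for Col8a1 and 44.8% for Col5a2, against a median of 51.2% over the 33469 windows of the table. Of those windows 30.5% hold a GC box and 34.0% a CCAAT, so these matches are a description and no sites. Windows were found for 22 of the 27 collagen genes and for 8 of the 10 tested, with none for Col1a1 and Col3a1. In the RefSeq gene order Col5a2 and Col3a1 are neighbours, as are Col4a1 and Col4a2.

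The rarer fibril genes rose from near 0. Col16a1, which lies on the surface of fibrils, stood at 0.627, 0.685 and 0.582 FPKM in control and 8.66, 7.37 and 8.34 at day 2. Col27a1, a fibrillar collagen of cartilage, stood at 0.867, 0.962 and 0.818 in control and 5.95, 3.89 and 6.11 at day 2. The rises were 2.48 ± 0.16 and 1.73 ± 0.15 on the log2(FPKM + 1) scale (adjusted p = 4.59e-13 and 3.59e-10). Col11a2 was not tested with the filter. It stood at 0.0292, 0.0243 and 0.109 FPKM in control and 1.66, 0.898 and 1.19 at day 2, and it was higher where every gene above 0 was tested (1.08 ± 0.17, adjusted p = 9.64e-06).

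The collagens outside the fibres rose by unlike amounts. Col8a1 stood at 26.9, 32.2 and 33.9 FPKM in control and at 117, 195 and 199 at day 2, a rise of 5.23-fold (adjusted p = 1.04e-10). Its replicate 1 library at day 2 was well below the others. Col4a1 stood at 89.5, 92 and 95.8 and 135, 160.3 and 159.7, a rise of 1.63-fold (adjusted p = 5.70e-07). Col18a1 had the smallest rise of the 10, with 192, 193 and 191 FPKM in control and 236, 262 and 264 after 2 days (1.32-fold, adjusted p = 5.90e-06).

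In sum, the 27 genes took 0.711%, 0.808% and 0.708% of the FPKM sum in the control libraries and 2.12%, 2.15% and 2.23% at day 2. Col1a2 enters this sum as 0, which can be a failed estimate, and Col4a2 and Col6a1 are not among the 27. The shares are therefore those of the listed genes and not of all collagen RNA. The share was highest in the day 2 libraries and its mean was lowest at day 12 (0.397%, 0.396% and 0.345%). Col1a1 and Col3a1 made up 79.9% to 81.2% of the sum of the 27 genes in control, 83.6% to 84.6% at day 2 and 64.2% to 67.2% at day 8.

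**Figure D2:**
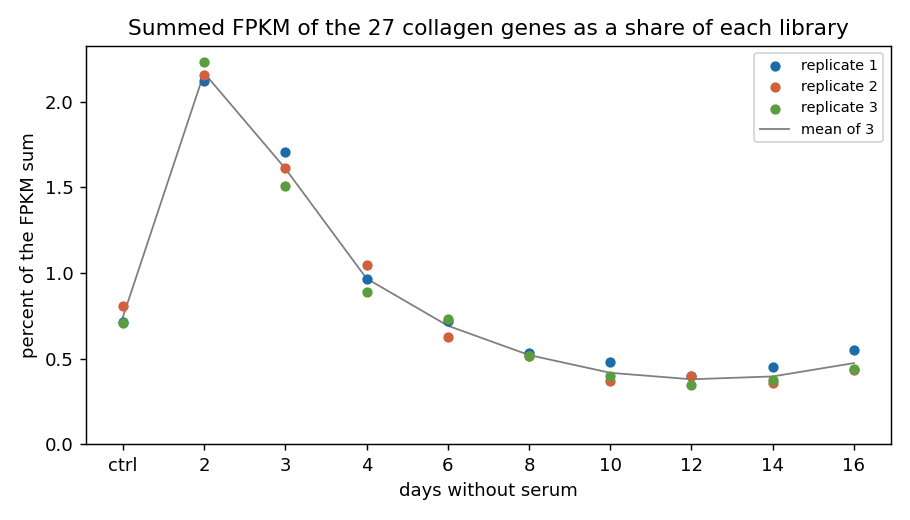
Summed FPKM of the 27 collagen genes as a percent of each library's FPKM sum (vertical axis, from 0) by days without serum. Each point is 1 library and the line follows the means of 3. Col1a2 enters the sum as 0, which can be a failed estimate. The share stands at 2.12% to 2.23% at day 2 and at 0.345% to 0.397% at day 12.

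Between day 2 and day 8 most collagens came down again while Col8a1 went up. Of the 10 genes 8 fell and 1 rose (18.4% of all genes tested fell and 17.4% rose), with a median log2 change of -1.75 against 0.01 over all genes. Those that fell were the 6 fibrillar genes, Col16a1 and Col18a1. Among them Col27a1 had passed the filter through its high libraries of day 2. Scaling to a common FPKM sum moved the calls over all genes from 1559 higher and 1642 lower to 2081 and 1169 (1911 and 1232 with a common sum of the other genes), and left the collagen counts as they were. This comparison shares the day 2 libraries with the one above.

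On the log2(FPKM + 1) scale the deepest falls were in Col3a1 and Col1a1. As a ratio of plain means that of Col27a1 was deeper, from 5.32 FPKM at day 2 to 0.482 at day 8. At day 8 Col3a1 stood at 970.0, 1008 and 993 FPKM and Col1a1 at 1114, 1260.5 and 1150.1, below every control library of the same gene. Col3a1 fell 6.29-fold from day 2 (-2.65 ± 0.07, adjusted p = 3.81e-19) and Col1a1 5.32-fold (-2.41 ± 0.13, adjusted p = 5.33e-14). On the way Col1a1 stood at 4241 ± 112 FPKM (SD, n = 3) at day 3, 2781 ± 123 at day 4 and 1721 ± 146 at day 6. Both genes had all libraries above control up to day 4 and all below it from day 6.

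The type V chains fell by different amounts. Col5a3 stood at 11.9, 12.4 and 12.2 FPKM at day 8 (-2.30 ± 0.20 against day 2), Col5a1 at 103, 102 and 109 (-1.67 ± 0.10) and Col5a2 at 556, 533 and 579.8 (-1.29 ± 0.07). Of the 3 chains Col5a2 came down last, with 1289, 1372 and 1352 FPKM at day 3, inside the range of day 2, where Col5a1 stood at 234, 255 and 247, below its day 2 range. The ratio of Col5a2 to Col5a1, chains that join in 1 molecule, was 4.01, 3.81 and 4.05 in control, 4.33, 3.87 and 3.97 at day 2, 6.62, 5.6 and 6.17 at day 4 and 4.19, 4.53 and 4.31 at day 16. Day 2 overlapped both control and day 16, and the day 4 libraries lay above all of them. In exact two-sided permutation tests of the log2 ratio the difference was 0.04 between day 2 and control (p = 0.6, 0.6 adjusted over 2 comparisons) and 0.09 between day 16 and day 2 (p = 0.3, 0.6 adjusted), where 3 against 3 cannot go below 0.1. Without day 2 replicate 1 the first difference was -0.0071.

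Col16a1 fell to 1.74, 1.73 and 1.28 FPKM (-1.82 ± 0.16) and Col27a1 to 0.251, 0.481 and 0.713 (-2.08 ± 0.15). Col18a1, lowest at day 6 with 76.2, 78.2 and 83.3 FPKM, stood at 87.5, 83.3 and 80.5 at day 8, down 3.01-fold from day 2 (adjusted p = 1.66e-16). It was already below every control library at day 3 (156, 167 and 168), earlier than any other tested collagen.

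Neither network-forming gene was called lower. Col8a1 stood at 264, 240.2 and 271 FPKM at day 8, where its mean was highest, a rise of 1.56-fold from day 2 (adjusted p = 0.0132). That call rests on the low library of day 2: without day 2 replicate 1 the change was 0.39 (adjusted p = 0.138). Col4a1 had its highest means at days 3 and 4 (194 ± 5.94 and 194 ± 10.2 FPKM) and stood at 136, 131 and 139 at day 8, overlapping day 2. Its change from day 2 did not pass (-0.16 ± 0.10, adjusted p = 0.207) and did with replicates 2 and 3 only (-0.25, adjusted p = 0.0176).

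**Figure D3:**
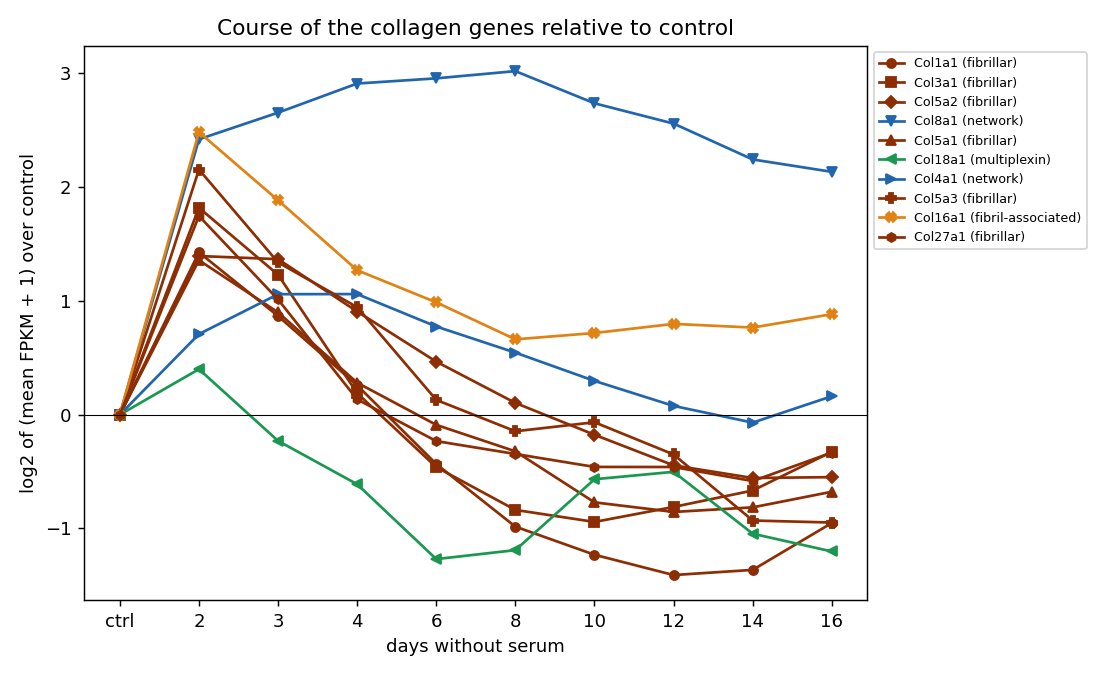
Log2 of (group mean FPKM + 1) over the control mean (vertical axis) for the 10 tested collagen genes, by days without serum, coloured by collagen class. The 6 fibrillar genes are at or below control (0) by day 10, while Col8a1 stays more than 2 above it on this scale.

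Over the 27 starved libraries the fibrillar genes and Col16a1 tracked Col1a1, with Pearson correlations of log2 values from 0.93 (Col5a3) to 0.98 (Col5a1). The libraries share days, so these describe the common course. Col4a1 (0.78) and Col18a1 (0.70) were lower and Col8a1 was at 0.03. Around the group means, over 30 libraries, Col4a1 (0.73) and Col5a1 (0.63) were the most alike to Col1a1 and Col8a1 was at -0.28.

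From day 8 to day 16 the type V chains, Col4a1 and Col8a1 fell and Col3a1 rose. Of the 10 genes 5 fell and 1 rose (14.4% of all genes tested fell and 15.8% rose), with a median log2 change of -0.18 against 0.00 over all genes. Col3a1 was the gene that rose, from 970.0, 1008 and 993 FPKM at day 8 to 1472, 1417 and 1347 at day 16 (1.42-fold, adjusted p = 8.51e-06). Col1a1 stood at 1325, 1219.8 and 1059.6 at day 16, overlapping day 8 (0.03 ± 0.13, adjusted p = 0.891). Scaling to a common FPKM sum moved the median of all genes by -0.16 and the calls over all genes from 1412 higher and 1291 lower to 731 and 2458 (726 and 2458 with a common sum of the other genes). Under the first the collagen counts did not change, Col3a1 still passed (0.34) and Col1a1 was at -0.14 (adjusted p = 0.516).

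The ratio of Col3a1 to Col1a1 was 0.814, 0.71 and 0.77 in control and 0.96, 0.975 and 1.06 at day 2. It was 0.748, 0.696 and 0.736 at day 4, 0.871, 0.8 and 0.864 at day 8 and 1.11, 1.16 and 1.27 at day 16. The day 16 libraries were the highest of these groups with no overlap, and Col3a1 exceeded Col1a1 in all 3 libraries at days 12, 14 and 16. This ratio was picked after its values were seen and was not tested.

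The 5 that fell were Col5a1, Col5a2, Col5a3, Col4a1 and Col8a1. Col5a2 stood at 364, 353 and 345 FPKM at day 16 (-0.65 ± 0.07 from day 8, adjusted p = 9.54e-08). Col8a1 stood at 116, 141 and 162 (-0.90 ± 0.20, adjusted p = 0.00114), with every day 16 library below every day 8 library. Col5a3 stood at 8.28, 6.08 and 5.28 (-0.82 ± 0.20), Col4a1 at 115, 98.4 and 97.6 (-0.39 ± 0.10) and Col5a1 at 86.9, 78 and 80 (-0.36 ± 0.10), with adjusted p = 0.00327, 0.00305 and 0.00761. Their groups did not overlap either. Col16a1 and Col27a1 did not pass (adjusted p = 0.296 and 0.93).

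Col18a1 was higher between these days than at either. It stood at 119, 134 and 135 FPKM at day 10 and 136, 134 and 137 at day 12, above all 6 libraries of days 6 and 8, and at 99.4, 88.2 and 90.3 and 84.5, 80 and 84.6 at days 14 and 16. Its change from day 8 to day 16 was -0.01 ± 0.06 (adjusted p = 0.911). The step into day 10 was not tested. None of the other 9 genes had a mean at day 10 or day 12 as many times its mean at day 8.

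At day 16 most fibrillar collagens and Col18a1 were below unstarved cells, and Col8a1 and Col16a1 above them. Of the 10 genes 6 fell and 2 rose (35.0% of all genes tested fell and 32.4% rose), with a median log2 change of -0.44 against -0.02 over all genes. Of the fibrillar genes, Col5a3 was lower by 1.95-fold, Col1a1 by 1.94-fold, Col5a1 by 1.6-fold, Col5a2 by 1.46-fold and Col3a1 by 1.25-fold (adjusted p from 1.90e-07 to 4.06e-04). Col18a1 fell most, 2.3-fold (adjusted p = 5.91e-15). None of these 6 genes had a library of day 16 inside its control range.

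Col8a1 was still 4.37-fold above control at day 16 (adjusted p = 5.86e-10), its lowest starved library of any day (116 FPKM) being above its highest control library (33.9). Col16a1 stood at 2.33, 1.9 and 1.8 FPKM, also above every control library (0.88 ± 0.16, adjusted p = 2.15e-05). Its control mean (0.631 FPKM) lay below the filter, so it was tested through the starved groups, where it was higher. Col4a1 did not pass (0.16 ± 0.10, adjusted p = 0.144), but did after scaling to a common upper quartile (0.27, adjusted p = 0.0335), which moved the median of all genes by 0.10. Col27a1 stood at 0.559, 0.561 and 0.365 FPKM, below its control libraries, and missed the threshold (adjusted p = 0.0561). It passed with a pseudocount of 0.1 (0.0459), without the filter (0.0406) and with the 2 groups fitted alone (0.045). Set directly against day 2, 9 of the 10 genes were lower at day 16 (20.5% of all genes tested) and Col8a1 did not pass (adjusted p = 0.317).

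**Figure D4:**
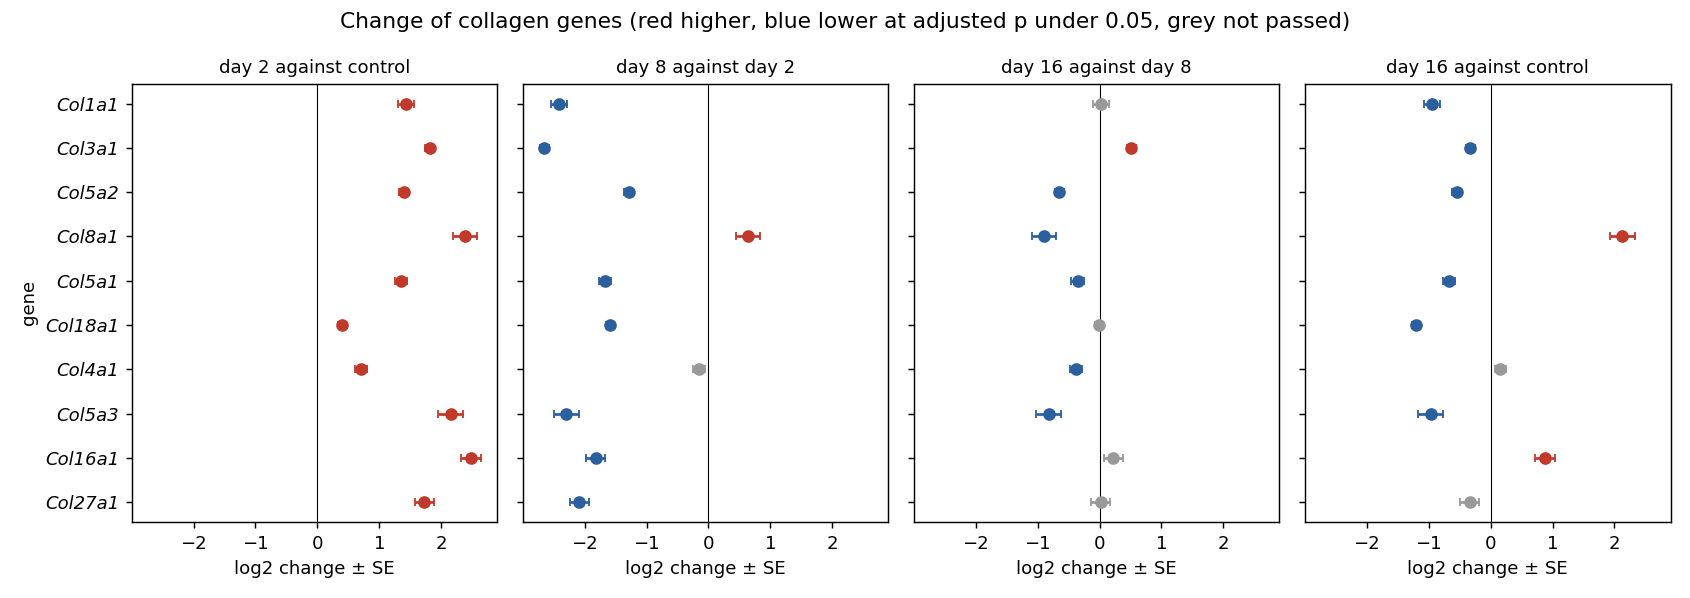
Log2 change of the 10 tested collagen genes (rows) in the 4 comparisons, with bars of ± SE from the fit of all 30 libraries. All 10 lie above 0 at day 2 against control, 8 lie significantly below 0 at day 8 against day 2, and Col8a1 and Col16a1 alone lie significantly above 0 at day 16 against control.

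Among genes outside the tests, Col11a2 stood at 2.15, 1.28 and 1.78 FPKM at day 4, 1.24, 1.42 and 1.21 at day 8 and 0.663, 0.256 and 0.255 at day 16. Col9a2, a chain of a collagen that coats cartilage fibrils, was listed at 0 in the control libraries and at 0.55, 0.261 and 0.564 at day 8. Its starved libraries ran from 0 to 0.564 FPKM.

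Most genes that modify and fold procollagen also rose at day 2, and the 3 P4ha genes of prolyl hydroxylase rose further to day 8. Of 16 tested genes of modification and folding, 15 rose at day 2 and 0 fell (median 0.45), against a background of 30% and 30.7%. From day 2 to day 8, 6 rose and 7 fell (median -0.11), where 17.4% of all genes rose and 18.4% fell. At day 16 against control 9 rose and 2 fell (median 0.28), where 32.4% of all genes rose and 35.0% fell. P4ha1, a catalytic subunit of the prolyl hydroxylase that lets the helix hold at body temperature, was at 59.7 ± 2.79 FPKM in control, 129 ± 5.09 at day 2, 318 ± 11.2 at day 8 and 218 ± 22.6 at day 16. It rose at day 2 and from day 2 to day 8 (1.11 ± 0.08 and 1.29 ± 0.08, adjusted p = 1.78e-11 and 2.89e-12). P4ha2, its paralog, was at 26.1 ± 2.57, 58.7 ± 0.578, 101 ± 7.39 and 137 ± 7.52 FPKM (2.35 ± 0.08 at day 16 against control, adjusted p = 6.72e-19). P4ha3, another paralog, was at 182 ± 9.05 FPKM after 2 days, 314 ± 5.01 after 8 (0.78 ± 0.06, adjusted p = 2.72e-10) and 225 ± 7.45 after 16 (-0.48 ± 0.06, adjusted p = 2.53e-06). These 3 genes rose from day 2 to day 8, where Col1a1 had fallen 5.32-fold. From day 8 to day 16, 4 of the list rose and 5 fell (15.8% and 14.4% over all genes), and 9 fell after scaling to a common FPKM sum. Fkbp10, a prolyl isomerase of procollagen folding, rose in that span (0.70 ± 0.07, adjusted p = 3.25e-08).

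**Figure D5:**
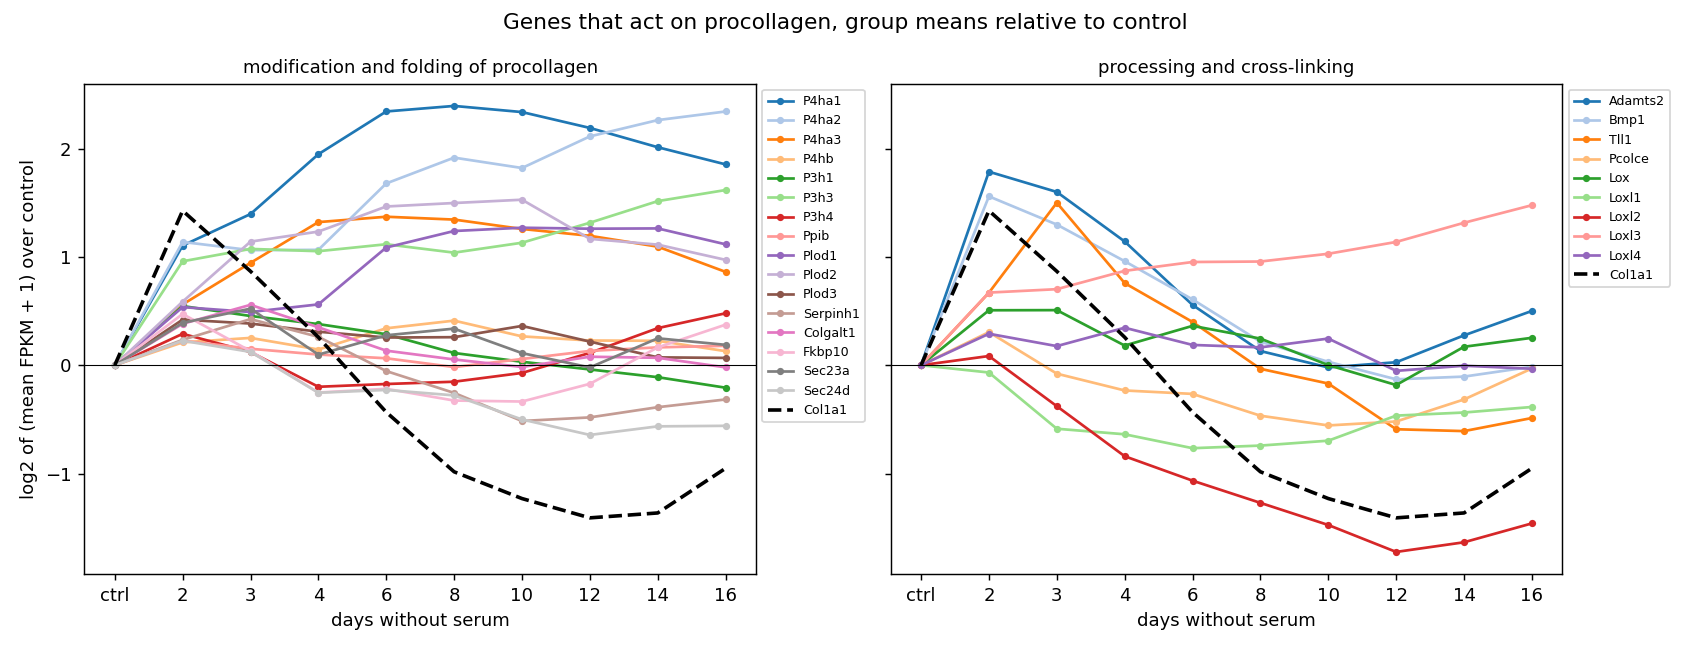
Log2 of (group mean FPKM + 1) over the control mean for tested genes of procollagen modification and folding (left, 16 genes) and of processing and cross-linking (right, 9 genes), with Col1a1 dashed. P4ha1 and P4ha2 go up from day 2 to day 8 while Col1a1 comes down, and Adamts2 and Bmp1 peak at day 2 with Col1a1.

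The genes of the proteases that trim procollagen were high at day 2 and fell by day 8. Of 9 tested genes of processing and cross-linking 6 rose at day 2 and 0 fell (median 0.50), where 30% of all genes rose and 30.7% fell. From day 2 to day 8, 1 rose and 6 fell (median -0.68), against 17.4% and 18.4% of all genes. Adamts2, which cuts off the N-propeptide, went from 19.6 ± 0.986 FPKM in control to 70.1 ± 9.47 at day 2 and 21.6 ± 1.86 at day 8 (1.78 ± 0.11 and -1.65 ± 0.11, adjusted p = 3.19e-13 and 4.80e-12). Bmp1, which cuts off the C-propeptide, went from 64 ± 3.86 to 191 ± 12 and 74.5 ± 3 (1.56 ± 0.09 and -1.34 ± 0.09, adjusted p = 2.97e-14 and 2.05e-12). At day 16 against control 2 of the 9 rose and 3 fell, no more than the shares over all genes (32.4% and 35.0%). The lysyl oxidase paralog Loxl3 was up by 1.48 ± 0.08 there and Loxl2 down by 1.45 on the log2 scale (adjusted p = 2.40e-14 and 4.36e-07). From day 8 to day 16, 4 rose and 2 fell (15.8% and 14.4% over all genes), among them Loxl3 (0.52 ± 0.08, adjusted p = 2.82e-05) and Loxl1 (0.36 ± 0.09, adjusted p = 0.00295), which both rose. After scaling to a common FPKM sum 1 of the 9 rose and Loxl1 did not pass (0.19, adjusted p = 0.145). The number that fell was 1 without day 16 replicate 1 and 0 without day 16 replicate 2 or 3 or day 8 replicate 2 or 3. The 1 rise from day 2 to day 8 was 0 without day 8 replicate 2.

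Of 7 tested genes of breakdown and uptake 5 rose and 1 fell at day 2, where 30% of all genes rose and 30.7% fell. From day 2 to day 8, 0 rose and 4 fell, against 17.4% and 18.4% of all genes. Mmp2, a gelatinase, stood at 0.941 ± 0.277 FPKM in control, 34.7 ± 3.25 at day 2 and 0.677 ± 0.119 at day 8 (4.21 ± 0.15 and -4.41 ± 0.15, adjusted p = 6.79e-18 and 9.41e-18). Its control and day 8 means lay below the filter of 1 FPKM, so it was tested through groups where it was higher. Mmp14, a membrane-bound collagenase, was at 199 ± 15.3 FPKM after 2 days, 121 ± 8.08 after 8 (-0.71 ± 0.08, adjusted p = 4.72e-08) and 169.9 ± 4.15 after 16 (0.48 ± 0.08, adjusted p = 3.23e-05). The inhibitor Timp2 rose at day 2 (0.74 ± 0.07, adjusted p = 6.49e-10). Mmp14 was, from day 8 to day 16, the 1 gene of this list that rose, and 0 fell, against 15.8% and 14.4% of all genes (Timp2 -0.11 ± 0.07, adjusted p = 0.235). At day 16 against control 2 of the 7 rose and 2 fell, near the shares over all genes (32.4% and 35.0%), with Timp2 higher (0.46 ± 0.07, adjusted p = 1.42e-06) and Timp1, another inhibitor, lower (-0.60 ± 0.14, adjusted p = 4.90e-04). The number that rose was 1 without day 16 replicate 2 or control replicate 1. The number that fell was 1 without day 16 replicate 1 or 2 or control replicate 2 or 3.

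Of the 4 tested receptors 3 rose and 1 fell at day 2 (30% and 30.7% over all genes), and with so few genes the counts below are a description only. From day 2 to day 8, 1 rose and 0 fell (17.4% and 18.4%), from day 8 to day 16, 0 rose and 2 fell (15.8% and 14.4%), and at day 16 against control 1 rose (2 with a replicate block) and 2 fell (32.4% and 35.0%). Ddr2, a receptor kinase for fibrillar collagens, was at 29.2 ± 6.05 FPKM in control and 72.8 ± 18.1 at day 2 (1.28 ± 0.19, adjusted p = 2.70e-06), while its paralog Ddr1 fell from 41.9 ± 3.51 to 26.4 ± 1.99 (-0.65 ± 0.09, adjusted p = 3.73e-07). Ddr1 did not pass from day 2 to day 8 (adjusted p = 0.0678), where Itga1, a collagen-binding integrin chain, rose (1.01 ± 0.23, adjusted p = 0.00119). Itga1 was low throughout, with means of 0.176 FPKM in control, 0.771 at day 2, 2.53 at day 8 and 3.00 at day 16. Its control and day 2 means lay below the filter of 1 FPKM, so it was tested through groups where it was higher. With a minimum of 5 FPKM, 0 receptors rose from day 2 to day 8 or at day 16 against control. Without day 2 replicate 1, 2 receptors fell there, with Ddr1 at adjusted p = 0.0371. The shared integrin chain Itgb1 and Ddr2 fell from day 8 to day 16 (-0.74 ± 0.08 and -0.60 ± 0.19, adjusted p = 4.91e-08 and 0.0194). The Ddr2 call was lost without day 16 replicate 1 (adjusted p = 0.0819) or day 8 replicate 3 (0.0728). At day 16 against control Itga1 was higher (1.73 ± 0.23, adjusted p = 3.57e-07) and Ddr1 was lower (-0.88 ± 0.09, adjusted p = 1.25e-09).

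TGF-beta signalling is a growth factor pathway known to drive collagen transcription. Of its 14 tested genes 7 rose and 3 fell at day 2, where 30% of all genes rose and 30.7% fell. From day 2 to day 8, 4 rose and 4 fell (17.4% and 18.4% over all genes). From day 8 to day 16, 0 rose and 5 fell (15.8% and 14.4%), and 8 fell after scaling to a common FPKM sum. At day 16 against control 6 rose and 4 fell, not far from the shares over all genes (32.4% and 35.0%). The ligand gene Tgfb3 went from 131 ± 4.93 FPKM in control to 327 ± 18.2 at day 2, 1256 ± 132 at day 4, 885 ± 46.2 at day 8 and 168 ± 4.56 at day 16. It rose to day 8 (1.43 ± 0.09 from day 2, adjusted p = 1.14e-12). At day 16 it fell from day 8 (-2.39 ± 0.09, adjusted p = 3.88e-16). Tgfbi, known as a target of the pathway, fell at day 2 (-1.86 ± 0.12, adjusted p = 3.76e-13). It was at 9.66 ± 0.843 FPKM in control, 1.94 ± 0.238 at day 2, 0.0444 ± 0.0769 at day 8 and 0.189 ± 0.0965 at day 16. The means of Tgfbi at days 8 and 16 lay below the filter of 1 FPKM, so it was tested through groups where it was higher. Ltbp2, which binds the extracellular matrix beside the latent forms of the pathway, was higher at day 16 than in control (1.23 ± 0.10, adjusted p = 2.26e-11). Members of this list moved in different directions, and the part of the pathway in the collagen changes was not tested.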

How the data were processed

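Total RNA of 30 libraries of the REF line was sequenced. Per the submitters' processing notes, the authors used TopHat2 2.1.1, Cufflinks and Cuffnorm 2.2.1 with the rn6 build. The deposited table gives FPKM per gene symbol and library. Its annotation, filters and scaling between libraries are not given in the sources used here. Columns were matched to samples by title and groups were taken from the titles.

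Genes with a mean of at least 1 FPKM over the 30 libraries (8940) were analysed as log2(FPKM + 1) with limma 3.58.1 in R 4.3.3 (means of 10 groups, empirical Bayes moderation with trend, two-sided, Benjamini-Hochberg over all genes kept, threshold 0.05). The fit was tested on simulated data. The gene lists by role were members of pathways named from general knowledge, and the collagen genes, lists and comparisons were chosen with earlier results of these data known. The comparison of day 16 with day 2 was added after the data were seen. Every tested collagen gene is named. Of each other list, the 2 genes with the smallest p in each comparison are named, except 1 that is not reported here. Of the chain ratios planned, that of Col5a2 to Col5a1 could be formed. Col1a2 is listed at 0, Col6a2 is near 0, and Col4a2 and Col6a1 are not among the 27 rows that the symbol rule found.

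Relative depth came from 984 genes above 0 in 2 to 6 libraries. Of their values, 89.2% lay within 0.15 of a whole number of steps. Such steps give relative depth only, so no counting interval is given.

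Replicate numbers are shared across groups and the labels do not say what they share. Same-numbered libraries deviated together in day 2 against control (correlations of 0.592, 0.209 and 0.188) and in day 16 against control (0.440, 0.135 and 0.357). They did not in all pairs of day 8 against day 2 (0.0773, 0.00052 and 0.156) or day 16 against day 8 (0.234, 0.0486 and 0.143). Over all 135 pairs of same-numbered libraries the correlations ran from -0.206 to 0.727, with a median of 0.194, and 97 exceeded 0.1. The fits have no replicate block. Alternatives covered the pseudocount, the filter, 3 rescalings, the replicate block, the 2 groups alone, leaving out each library and leaving out replicate 1. Promoter windows are RefSeq's (GRCr8), read with Python 3.11.15. Figures were drawn with matplotlib 3.10.9.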

Additional observations from a re-analysis of the deposited data

Results flagged for a closer look

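Of the 10 tested collagen genes, 6 stood above control at day 2 and below it at day 16, both past the threshold, so their change against control differed between these times. As the 6 genes were picked by both of these calls, such a difference follows from the choice and its p-values are no separate support. The difference, which is that of day 16 minus day 2 in the same fit (log2, limma, both comparisons with control sharing the control libraries), was -3.12 ± 0.20 for Col5a3 (adjusted p = 2.77e-12) and -2.38 ± 0.13 for Col1a1 (4.97e-14). It was -2.14 ± 0.07 for Col3a1 (adjusted p = 7.42e-18), -2.03 ± 0.10 for Col5a1 (7.12e-15), -1.94 ± 0.07 for Col5a2 (1.96e-17) and -1.60 ± 0.06 for Col18a1 (1.02e-16).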

How the results depend on the processing

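In the 4 comparisons, 571 of 592 recomputed log2 changes of the 10 collagen genes kept their direction and side of the threshold. Without a filter 13 collagen genes were called higher and 1 lower at day 2 (Col11a1, Col11a2 and Col14a1 higher and Col17a1 lower beside the 10). From day 2 to day 8, 2 were higher and 9 lower (Col9a2 higher and Col11a1 lower in addition). From day 8 to day 16, 1 was higher and 6 lower (Col11a2 lower in addition). At day 16 against control 3 were higher and 8 lower (Col9a2 higher, Col17a1 and Col27a1 lower in addition). Over all 12370 genes tested without a filter, 2818 were higher and 2989 lower at day 2, and 1578 and 1757 from day 2 to day 8. From day 8 to day 16 they were 1494 and 1253, and at day 16 against control 3133 and 3442. Col11a1, Col14a1 and Col17a1 lay near 0, with 0.159, 0.437 and 0.122 FPKM at most. With a minimum of 5 FPKM, 1 was called higher at day 16 against control, because Col16a1 was not tested. Leaving out single libraries, the number higher from day 2 to day 8 was 0 to 1, and the Col5a2 to Col5a1 difference was -0.0071 to 0.074 at day 2. With the replicate block the counts of collagen genes were 10 and 0 (higher and lower) at day 2 and 1 and 8 from day 2 to day 8. They were 1 and 5 from day 8 to day 16, and 2 and 6 at day 16 against control, as without the block. The block also changed no call of a single collagen gene. Over all 8940 genes it called 2938 and 2962 at day 2 and 1909 and 1911 from day 2 to day 8. It called 1736 and 1734 from day 8 to day 16, and 3129 and 3320 at day 16 against control. It called Ddr1 from day 2 to day 8 (adjusted p = 0.0266), 2 receptors lower there and 2 TGF-beta genes higher from day 8 to day 16, each 0 without it.

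Among the collagen log2 changes, the sign turned in Col1a1, Col27a1 and Col18a1 from day 8 to day 16, which passed under none of these settings. Scaled to a common sum, or to a common sum of all other genes, Col1a1 was at -0.143 and -0.144 and Col27a1 at -0.0339 and -0.0291. Col18a1 was at 0.0046 with a common upper quartile. With replicates 2 and 3 only, Col18a1 was at 0.0077, Col1a1 at -0.0827 and Col27a1 at -0.126. Leaving out single libraries gave -0.0454 to 0.116 for Col1a1, -0.0942 to 0.132 for Col27a1 and -0.0394 to 0.0200 for Col18a1. The cause was not tested. Counts of the other lists kept within 1.5 times the reported count in 562 of 600 recomputations. Read totals are unknown, so no counting error could be given for genes near 0 (Col27a1, Col16a1, Col11a2, Col9a2, Col11a1, Col14a1, Col17a1, Itga1).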
